A study of Homo sapiens with 6 samples.

Results

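The genes described here encode the cystine transporter SLC7A11, the 2 subunits of glutamate-cysteine ligase (GCLC and GCLM), glutathione reductase (GSR), the quinone reductase NQO1, thioredoxin reductase 1 (TXNRD1), sulfiredoxin (SRXN1), malic enzyme 1 (ME1) and haem oxygenase 1 (HMOX1). They were taken by gene symbol from the platform annotation, which assigns 21 of the 54613 probe sets to these 9 genes, out of 19775 genes measured. All 9 genes had at least 1 probe set, and 0 probe sets named a member beside other symbols. MCF-10A is a human mammary epithelial line, immortalized but not transformed, that needs EGF to grow. The CRB3-expressing cells carried a retrovirus encoding the polarity protein CRB3 with an amino-terminal myc tag. The vector control cells carried the empty pNG vector. Both had been selected with puromycin and grew in the usual MCF-10 medium, with EGF present according to the paper. They were sampled while proliferating, before confluence, with RNA of 3 samples per group on 6 Affymetrix U133 Plus 2.0 arrays. The paper itself names puromycin only for lines with added short hairpin RNAs. It also has the CRB3 constructs moved from pNG into the vector pLNCX2. Whether both groups shared a vector backbone is not stated.

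Values are the log2 signals of the Robust Multichip Average (RMA) method that the authors deposited, 1 per probe set and array. Differences are CRB3-expressing minus vector control. They were tested with limma over all probe sets, and a gene was called at an adjusted p under 0.05 with a fold change above 1.5, the thresholds of the study's methods. Where only the first condition was met, the probe set is said to have passed the test. Each gene is read first in its brightest probe set. Whether the triplicates go back to separate infections is not stated, and p-values here cover the spread between these samples alone. With 3 arrays a group, precision is limited. RNA came from whole cultures, so a smaller amount in every cell and a loss from some of the cells cannot be told apart.

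The CRB3 transcript averaged 12.11 ± 0.10 on the CRB3-expressing arrays and 7.78 ± 0.17 on the vector control arrays (SD, n = 3 each), a log2 fold change of 4.33. The array medians lay between 5.84 and 5.88. The hybridization controls averaged 11.25, 11.19 and 11.27 on the CRB3-expressing arrays and 11.61, 11.25 and 11.42 on the vector control arrays. They were thus highest on vector control replicates 1 and 3, and their part in the values below was not tested. The 7 measured markers of mammary epithelium had means of at least 10.89 in CRB3-expressing cells and at least 9.06 in vector control cells. Of the 4 leukocyte markers, PTPRC was the dimmest, at 4.19 with CRB3 and 4.16 with the vector, and CD14 the brightest, at 8.27 with CRB3 and 8.32 with the vector. Of the 4 endothelial markers, CDH5 was the dimmest (4.15 with CRB3, 4.16 with the vector) and PECAM1 the brightest (6.55 with CRB3, 6.61 with the vector), and 0 of these 8 genes passed the test. Of the epithelial markers, 3 were called higher and 0 lower in CRB3-expressing cells (1.43% and 0.465% of all genes were). With no fold threshold 5 passed the test as higher and 1 as lower (3.37% and 1.77% of all genes did). The lower one was ITGA6 (log2 difference -0.36, adjusted p = 0.0388). Of 6 fibroblast markers DCN was called lower (6.93 with CRB3, against 7.68 with the vector). The part of these marker differences in the values below was not tested.

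Glutathione is the main small thiol of the cell. Its synthesis starts from cysteine, which many cultured cells take up as cystine through SLC7A11 in exchange for glutamate, and glutamate-cysteine ligase catalyses the limiting step. Oxidized glutathione and oxidized thioredoxin are reduced again with NADPH, which malic enzyme is one of several enzymes to supply. The transcription factor NRF2, encoded by NFE2L2 and held in check by KEAP1, is known to drive these genes through antioxidant response elements, short sequences bound by NRF2 with a small MAF protein.

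The RefSeq promoter windows of GRCh38.p14 run from 250 bases before to 50 bases after an annotated start. They were searched on both strands for TGACNNNGC, letters of an antioxidant response element, where N is any base. A match of the letters is not shown to be a working element, and binding of NRF2 was not tested. Of the 9 genes, 6 were matched to a window by symbol; SLC7A11, HMOX1 and GSR were not. The letters occurred in 4 of the 7 windows of these 6 genes (57.1%), against 13.3% of 35116 windows of all genes. TXNRD1 supplied 2 of these 4 windows. Counted by gene, 3 of the 6 had a match in any window, against 16.1% of 27305 genes with a window. Among 27 windows of other genes widely used as NRF2 targets, a list described below, 22.2% held the letters. For the 6 genes, the matches upstream of a start are printed with the motif in capitals, read along the strand of the gene.
GCLM, chr1:93909448-93909472, minus strand: cgatttctGCTTAGTCAttgtcttc
ME1, chr6:83431172-83431196, minus strand: tcctgccaTGACTCAGCgcttctcg
TXNRD1, chr12:104215672-104215696, plus strand: acgggctaTGACTTCGCtgttgtca
TXNRD1, chr12:104215763-104215787, plus strand: gtccttcgGCTCCGTCAgttcccac
TXNRD1, chr12:104286922-104286946, plus strand: ggatttctGCTTTGTCAttctgact
The motif of GCLM began 34 bases upstream of the start and stood in the opposite orientation. That of ME1 began 137 bases upstream and read TGACTCAGC in the direction of the gene. TXNRD1 has 2 annotated starts in the table, and the first 2 windows belong to one of them (99 and 8 bases upstream) and the last to the other (102 bases upstream). The windows of NQO1, GCLC and SRXN1 held 0 matches, which says only that these letters are not within this stretch.

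By brightest probe set, SLC7A11 and NQO1 passed the test as lower in CRB3-expressing cells, and the other 7 genes did not pass, with log2 fold changes between -0.23 and 0.24. Of the 21 probe sets, 2 were called lower and 0 higher, while 0.363% of all probe sets were called lower and 0.948% higher. With no fold threshold, 7 of the 21 passed the test as lower (33.3%, against 1.39% of all probe sets) and 0 as higher (against 2.24%). By limma's p before adjustment, 16 were lower and 1 was higher at 0.05, against 8.16% and 8.15% of all probe sets. The CRB3-expressing arrays all lay below the vector control arrays in 16 probe sets (10.7% of all probe sets do) and all above in 1 (11.1% of all). Probe sets of 1 gene read the same transcript, so the count over genes is given too. The 9 genes were chosen with earlier results of these data known, so the shares describe these genes and are no test. By gene, SLC7A11 was called lower (1 of 9, against 0.465% of all genes), SLC7A11 and NQO1 passed the test (2 of 9, against 1.77%), and 0 were called higher (against 1.43%) or passed the test as higher (against 3.37%). The number of genes that passed depended on the variance model and the probe set rule. With a trended, robust prior GCLC, SRXN1, ME1 and GSR passed as well (6 of 9, against 3.84% of all genes), and with the probe sets of each gene averaged GCLM, GCLC and GSR did (5 of 9, against 2.84%). The share over all genes is higher where dim genes are left out. Among 12460 genes with a mean log2 value over 6 in at least 1 group, 5.44% passed as lower, against 3 of the 9. For 7 of the 9 genes each CRB3-expressing array lay below each vector control array, which held for 12.1% of all genes, and for 1, HMOX1, each lay above (14.5% of all genes). The median log2 fold change was -0.21 over the 9 genes and 0.0066 over all genes.

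**Figure D1:**
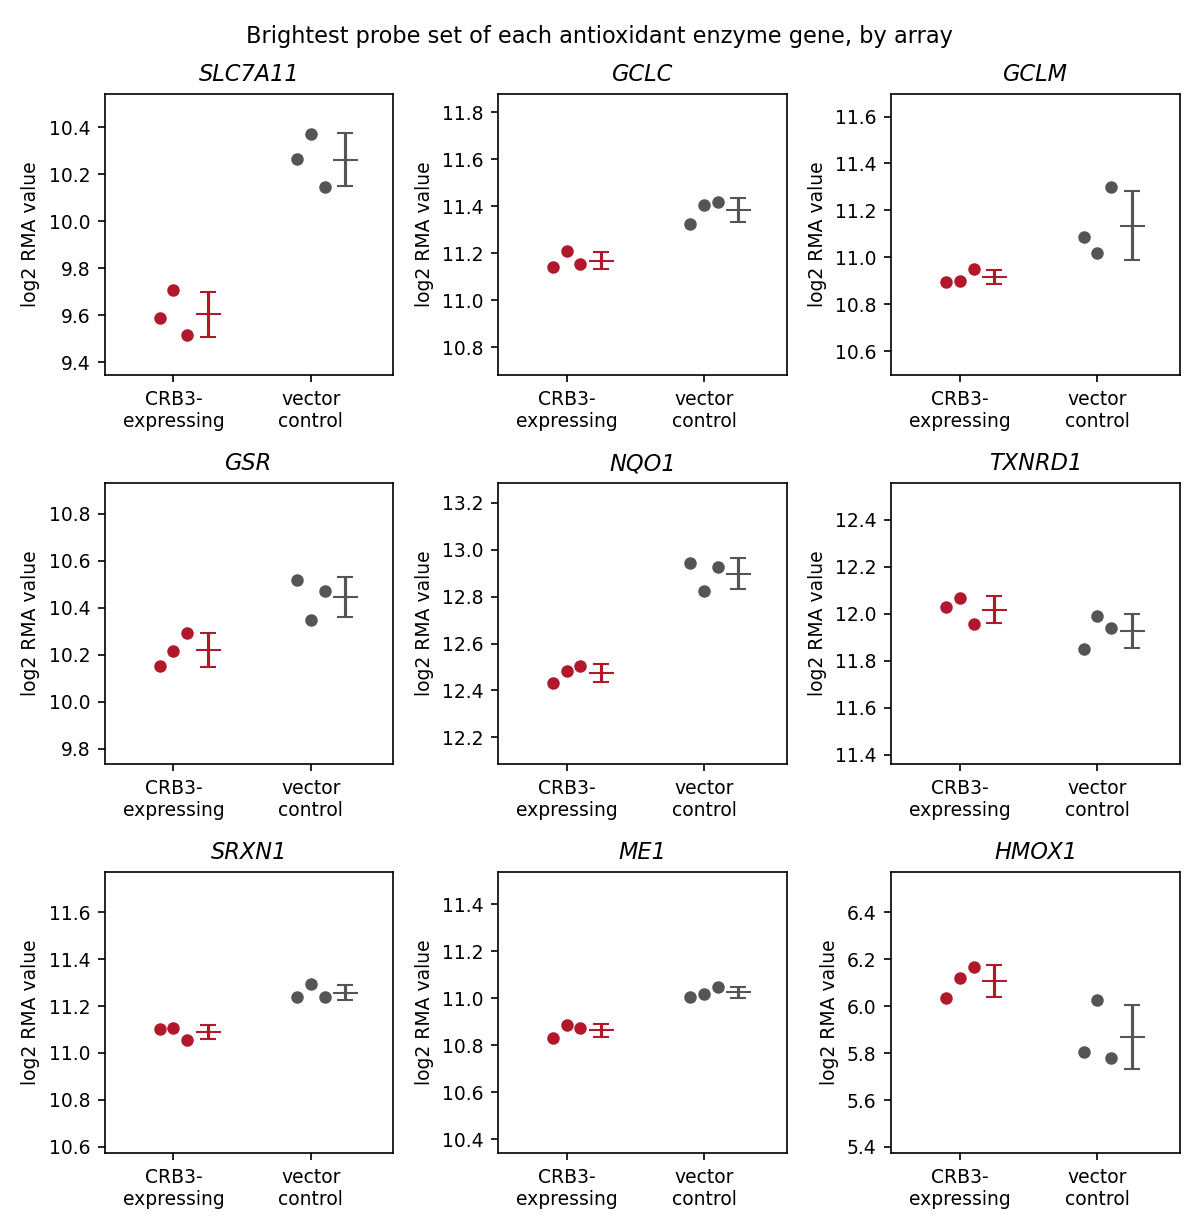
Log2 RMA value (y axis, each panel spanning the same 1.2 log2 units) of the brightest probe set of each gene on the 3 CRB3-expressing arrays (red) and the 3 vector control arrays (grey); each point is 1 array, and bars give mean and SD (n = 3). SLC7A11 and NQO1 show the widest gaps, the groups of TXNRD1 overlap, and HMOX1 has its CRB3-expressing points above those of the vector control.

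SLC7A11, the light chain of the cystine-glutamate exchanger that brings in the precursor of glutathione, had the largest difference of the 9 in the brightest probe sets. It was at 9.59, 9.71 and 9.52 on the CRB3-expressing arrays and at 10.27, 10.37 and 10.15 on the vector control arrays. The highest CRB3-expressing array thus stayed below the lowest vector control array. Expression fell by 0.66 on the log2 scale (SE 0.081, adjusted p = 0.00213), a level 1.58-fold lower, with a 95% interval of the log2 fold change between -0.84 and -0.48. The interval includes the fold threshold, and limma's treat, which asks for more than a 1.5-fold change, did not call it (adjusted p = 1).

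Its second probe set gave 9.13, 8.98 and 9.06 in CRB3-expressing cells, against 9.87, 9.82 and 9.71 in vector control cells. This was the largest difference among the 21 probe sets, at 1.68-fold lower (log2 difference -0.75, SE 0.072, adjusted p = 0.000539). The dimmest of the 3 gave 7.21, 7.13 and 7.04 against 7.48, 7.86 and 7.66. It passed the test but lay under the fold threshold (log2 difference -0.54, adjusted p = 0.0192). Without each array in turn, the log2 fold change of the brightest probe set was between -0.72 and -0.60 and the gene stayed called. Under a plain pooled variance, with no empirical Bayes step, it was not called (adjusted p = 0.0728). SLC3A2, the heavy chain that SLC7A11 pairs with at the membrane, averaged 11.95 in CRB3-expressing cells, against 12.08 in vector control cells (log2 difference -0.13, adjusted p = 0.345), and is given here for that partnership after its values were seen.

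Glutamate-cysteine ligase joins glutamate to cysteine. GCLC is its catalytic subunit and GCLM the modifier subunit that raises its efficiency. The 6 probe sets of these 2 genes all had lower values on every CRB3-expressing array than on any vector control array, but only 1 of them passed the test. GCLC was at 11.14, 11.21 and 11.15 in CRB3-expressing cells, against 11.33, 11.41 and 11.42 in vector control cells. The log2 fold change was -0.21 (95% interval -0.35 to -0.074, adjusted p = 0.114), and those of its other probe sets were -0.18 and -0.25. The second of these 2 had means of 5.38 and 5.64, a level that is not shown to be above background.

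GCLM was at 10.90, 10.90 and 10.95 in its brightest probe set in CRB3-expressing cells, against 11.09, 11.02 and 11.30 in vector control cells (log2 difference -0.22, adjusted p = 0.222). The SD was 0.0305 with CRB3, against 0.148 with the vector, and without vector control replicate 3 the difference was -0.14. The dimmest of its probe sets was at 7.98, 7.89 and 7.89, against 8.21, 8.27 and 8.41. That one passed the test, at 1.30-fold lower (log2 difference -0.38, SE 0.072, adjusted p = 0.0244). The third probe set had a difference of -0.46, with an SD of 0.284 in vector control cells, where replicate 2 was at 8.69 and the others at 9.11 and 9.24, and it did not pass (adjusted p = 0.0918). The differences of the 3 probe sets thus ranged between -0.46 and -0.22.

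GSR reduces glutathione disulfide back to glutathione with NADPH. Its brightest probe set was at 10.15, 10.22 and 10.29 in CRB3-expressing cells, against 10.52, 10.35 and 10.47 in vector control cells. The second gave 9.79, 9.74 and 9.66 against 10.08, 9.92 and 10.03. The groups did not overlap in either, yet neither passed the test, with log2 fold changes of -0.23 (adjusted p = 0.151) and -0.28 (adjusted p = 0.0726). The intervals of these differences reached from -0.39 to -0.063 and from -0.44 to -0.12, so a fall of 1.5-fold lies outside both.

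NQO1 reduces quinones by a transfer of 2 electrons, and its transcript is a common readout of the NRF2 pathway. It was at 12.43, 12.48 and 12.50 in CRB3-expressing cells, against 12.94, 12.82 and 12.93 in vector control cells. The second probe set was at 11.38, 11.32 and 11.28, against 11.86, 11.77 and 11.87. In the dimmest, the values were 11.17, 11.09 and 11.26, against 11.76, 11.63 and 11.75. All 3 passed the test and all 3 stayed under the fold threshold, with log2 fold changes of -0.42 (SE 0.064, adjusted p = 0.00685), -0.51 (adjusted p = 0.00229) and -0.54 (adjusted p = 0.00344). In folds, the level was 1.34, 1.42 and 1.45 times lower in CRB3-expressing cells. Without each array in turn, the log2 fold change of the brightest probe set was between -0.46 and -0.40.

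**Figure D2:**
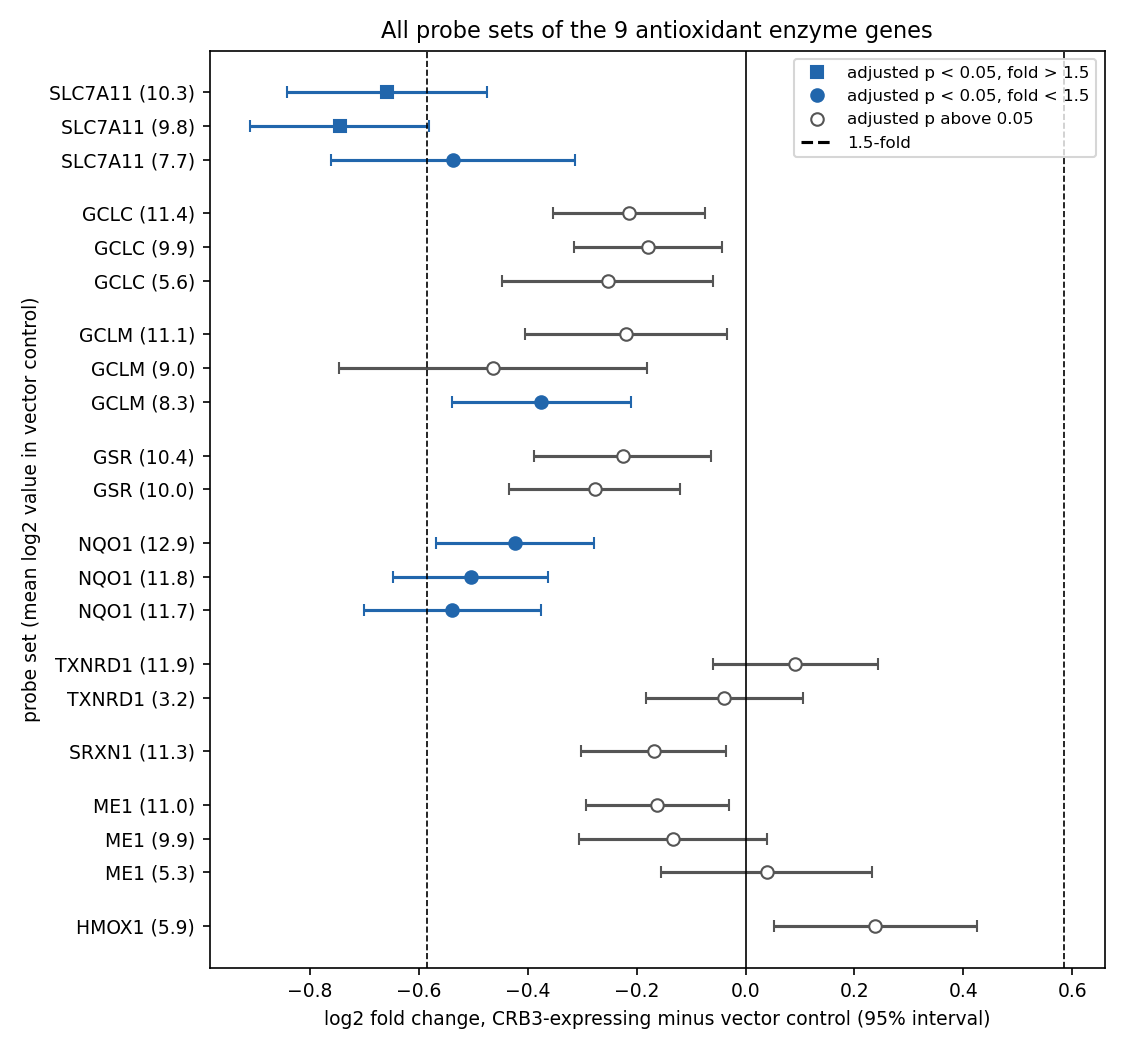
Log2 fold change (x axis, CRB3-expressing minus vector control) of each of the 21 probe sets (y axis, with the mean log2 value in vector control cells in brackets); bars are 95% intervals, and dashed lines mark 1.5-fold. The 3 probe sets of SLC7A11, the 3 of NQO1 and 1 of GCLM passed the test, all on the lower side, and 2 of SLC7A11 lie beyond the dashed line.

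TXNRD1 is the cytosolic selenoprotein that reduces thioredoxin with NADPH. Its bright probe set was at 12.03, 12.07 and 11.96 in CRB3-expressing cells, against 11.85, 11.99 and 11.94 in vector control cells, and the groups overlapped. The log2 fold change was 0.091 with a 95% interval from -0.060 to 0.24 (adjusted p = 0.562). That interval does not meet those of SLC7A11, NQO1, GCLC or, narrowly, GSR in their brightest probe sets, though differences between genes were not tested. Without vector control replicate 1 the difference of TXNRD1 was 0.053. The other TXNRD1 probe set, at 3.16 with CRB3 and 3.20 with the vector, is among the dim ones not shown to be above background. SRXN1, which restores over-oxidized peroxiredoxins, has a single probe set. It was at 11.10, 11.11 and 11.05 in CRB3-expressing cells, against 11.24, 11.29 and 11.24 in vector control cells. These arrays lay close together within each group, and the small difference of -0.17 had an adjusted p of 0.194 (95% interval -0.30 to -0.035).

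ME1 makes NADPH in the cytosol from malate. It was at 10.83, 10.88 and 10.87 in CRB3-expressing cells, against 11.01, 11.02 and 11.05 in vector control cells. The log2 fold change of -0.16 did not pass the test (adjusted p = 0.207). In its second probe set (-0.13) the groups overlapped, and the third, averaging 5.31 with CRB3 and 5.27 with the vector, had a difference of 0.039. The promoter windows of TXNRD1, ME1 and GCLM hold the motif. Those of NQO1, GCLC and SRXN1 do not, and SLC7A11, HMOX1 and GSR were not matched to a window. A relation between the motif and the differences was not tested.

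HMOX1 breaks haem down to biliverdin, iron and carbon monoxide, and it is inducible by many stresses besides those that act through NRF2. It was the single member whose CRB3-expressing arrays all lay above the vector control arrays, at 6.03, 6.12 and 6.17 against 5.80, 6.03 and 5.78. The nearest arrays of the groups both round to 6.03. The log2 fold change of 0.24 did not pass the test (SE 0.082, adjusted p = 0.187). Signals this close to the array median are not shown to be above background.

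Of 8 measured regulators of the NRF2 system, 0 passed the test in limma, and before adjustment 2 were higher and 2 lower at p under 0.05 (10.4% of all genes were higher and 8.39% lower by that measure). NFE2L2 was at 11.31, 11.18 and 11.19 in CRB3-expressing cells, against 11.36, 11.43 and 11.44 in vector control cells (log2 difference -0.18, adjusted p = 0.206). KEAP1 was at 10.21, 10.19 and 10.18, against 10.24, 10.25 and 10.25 (log2 difference -0.054, adjusted p = 0.704). NRF2 activity is set largely by the stability of the protein, which arrays do not read. The 2 regulators with the smallest p-values were the related factor NFE2L1 and the small MAF protein MAFF. NFE2L1 had a difference of 0.29 in its brightest probe set, which did not pass (adjusted p = 0.111), while both of its other probe sets passed as higher, at 0.39 each (adjusted p = 0.00895 and adjusted p = 0.011). The differences of MAFF, 0.18 and 0.087, did not pass. With the trended, robust prior the brightest probe sets of NFE2L2 (lower, adjusted p = 0.0345), NFE2L1 and MAFF (both higher) passed the test, each under the fold threshold.

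The other genes of glutathione, thioredoxin and NADPH metabolism had list medians close to 0 and few members that passed the test. Of 37 genes of glutathione synthesis and use, 0 were called by brightest probe set. There 1 passed the test as higher and 1 as lower (3.37% and 1.77% of all genes did). A dimmer probe set of GPX8 passed as lower too (log2 difference -0.32, adjusted p = 0.0388), while its brightest had a difference of -0.0029. The median log2 fold change of the 37 genes was 0.0053. By limma's p before adjustment, 7 were higher and 3 lower at 0.05, against 10.4% and 8.39% of all genes. MGST3, a microsomal glutathione transferase, averaged 12.24 in CRB3-expressing cells, against 11.76 in vector control cells (log2 difference 0.48, adjusted p = 0.00482), with 0.0011 in the second probe set and 0.25 in a dim further one, neither of which passed. The transferase GSTM4 fell by 0.34 on the log2 scale (adjusted p = 0.0216, a test it did not pass in 5 of the 6 fits without 1 array), while its other probe set had a difference of 0.14. Of 18 genes of the thioredoxin and peroxiredoxin system, 2 passed the test, both as higher (3.37% of all genes did) and both under the fold threshold. TXNIP, which binds and inhibits thioredoxin, was at 10.82, 10.96 and 10.88 in CRB3-expressing cells, against 10.35, 10.48 and 10.43 in vector control cells. Its log2 fold change was 0.47 (adjusted p = 0.00568), and both other probe sets passed too, at 0.40 and 0.37. The difference of MSRB3, a methionine sulfoxide reductase, was 0.39 (adjusted p = 0.0159), but it did not pass without CRB3-expressing replicate 1 (adjusted p = 0.0689), without vector control replicate 1 (adjusted p = 0.0612) or with the replicate number as a block (adjusted p = 0.0556). Of its other probe sets, those at 0.29 and 0.32 passed as higher (adjusted p = 0.0365 and adjusted p = 0.0425). Those at 0.27 and 0.15 did not.

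By brightest probe set, 0 of 18 genes of NADPH production passed the test in limma. Before adjustment 0 were higher and 1 lower at p under 0.05, the lower one being transketolase, TKT, at -0.23. ALDH1L2 had a log2 fold change of 0.19. A dim probe set of NNT, averaging 4.29 with CRB3 and 4.84 with the vector, passed as lower (log2 difference -0.55, adjusted p = 0.0035). The brightest probe set of NNT had a difference of -0.048. FTL, the ferritin light chain of iron storage, was at 12.82, 12.85 and 12.83 in CRB3-expressing cells, against 13.33, 13.26 and 13.38 in vector control cells. Its groups were far apart for their spread, with a log2 fold change of -0.49 (adjusted p = 0.00250) and -0.57 in its second probe set, both under the fold threshold. By brightest probe set, only FTL of 8 genes of haem breakdown and iron storage passed (1.77% of all genes passed as lower). A dimmer probe set of BACH2, averaging 4.16 with CRB3 and 4.62 with the vector, also passed as lower (log2 difference -0.46, adjusted p = 0.00586). BLVRB, a biliverdin reductase, had a log2 fold change of 0.16. For superoxide and hydrogen peroxide removal, 0 of 5 genes passed the test in limma or had a p under 0.05 before adjustment. NQO2, a relative of NQO1, and the superoxide dismutase SOD1 had log2 fold changes of -0.15 and -0.078.

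**Figure D3:**
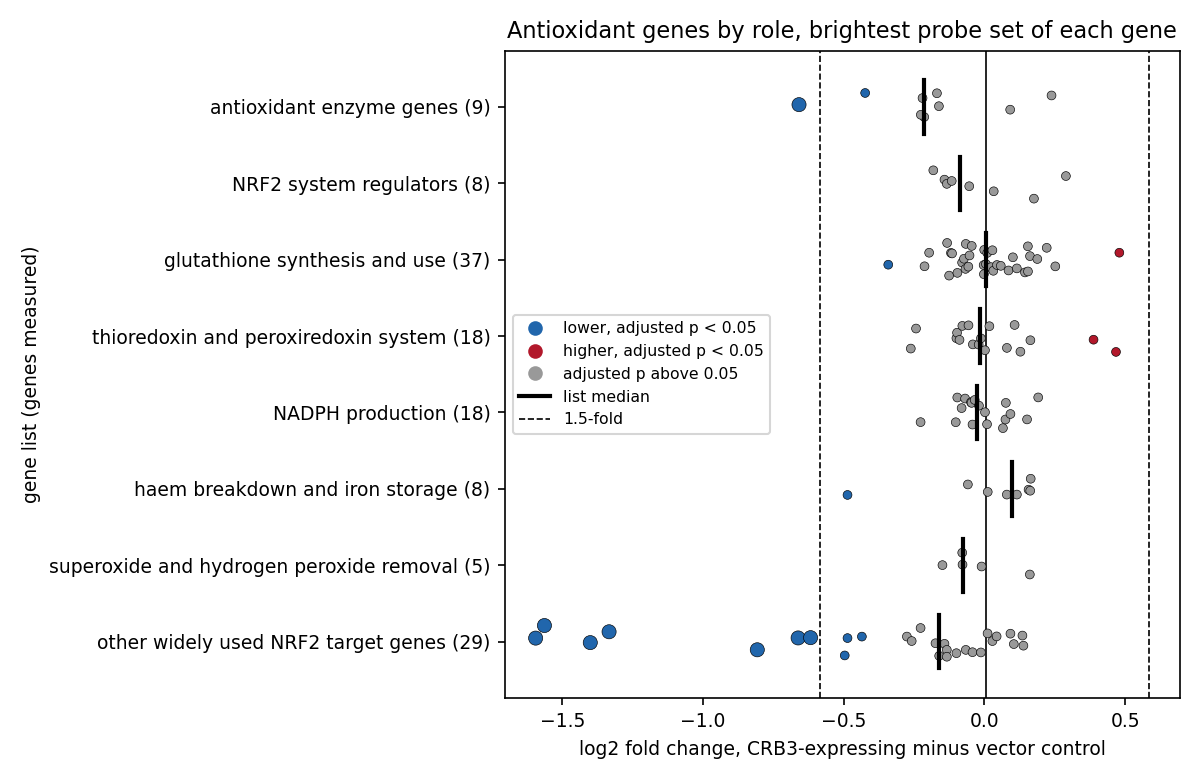
Log2 fold change (x axis, CRB3-expressing minus vector control) of each gene in its brightest probe set, by list (y axis, with the number of genes measured); blue and red points passed the test as lower and higher, large points also passed the fold threshold, thick bars are list medians and the thin line is the median of all genes. The 9 antioxidant enzyme genes have a median of -0.21 and the other NRF2 target genes one of -0.16 with 7 members called lower, while the lists of glutathione, thioredoxin and NADPH genes centre near 0.

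Other genes that are widely used as NRF2 targets held the larger falls. Their list was drawn up with the falls of the AKR1C genes and of ALDH3A1 already known. Of 29 measured, 7 were called lower (0.465% of all genes were) and 0 higher (1.43% of all genes were). The test was passed as lower by 10 (1.77% of all genes did), and the median log2 fold change was -0.16. The aldo-keto reductases AKR1C2 and AKR1C3 had log2 fold changes of -1.59 and -1.56 (adjusted p = 1.91e-06 and adjusted p = 2.66e-06). AKR1C2 was at 9.79, 9.81 and 9.74 in CRB3-expressing cells, against 11.32, 11.41 and 11.40 in vector control cells. AKR1C1, AKR1C2 and AKR1C3 are highly similar in sequence and their probe sets may share signal, so 3 of the 7 calls may not be separate falls. PIR, an iron-binding nuclear protein, was at 10.01, 10.00 and 9.90 in CRB3-expressing cells, against 10.65, 10.57 and 10.68 in vector control cells (log2 difference -0.66, adjusted p = 0.000559). EPHX1, the microsomal epoxide hydrolase, was at 10.70, 10.76 and 10.80, against 11.38, 11.26 and 11.47 (log2 difference -0.62, adjusted p = 0.00176). Without vector control replicate 3, the EPHX1 difference was -0.57 and no longer reached 1.5-fold, and under the plain pooled variance it was not called either (adjusted p = 0.0559). In each case 6 genes of this list were called lower. The remaining called genes, ALDH3A1, CES1 and AKR1C1, had log2 fold changes between -1.40 and -0.81 and are named after their values were seen.

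Over these lists together, 114 of 120 genes were measured, each counted once, and 7 were called lower (6.14%, against 0.465% of all genes) and 0 higher (against 1.43%). The test was passed by 11 as lower (1.77% of all genes did) and by 3 as higher (3.37% of all genes did). All 7 called genes belong to the list of other NRF2 targets. That list mixes enzymes of drug and carbonyl metabolism with genes of the other lists, and it was drawn up with the falls of the AKR1C genes and of ALDH3A1 already known.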

How the data were processed

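Total RNA of 3 CRB3-expressing and 3 vector control samples had been hybridized to Affymetrix Human Genome U133 Plus 2.0 arrays. Background correction and normalization were done by the authors with the rma function of R/Bioconductor (version not given in the sources used here), and the deposited values are on a log2 scale, 1 per probe set and array. They were used as they stand. They carry no detection calls.

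After removal of 62 array controls, 54613 probe sets were fitted in R 4.3.3 with the lmFit and eBayes functions of limma 3.58.1 (vector control as the baseline). P-values were adjusted by the Benjamini-Hochberg method across this whole set, with 95% intervals from the moderated t distribution. Names came from the platform annotation, which lists 41091 probe sets under 1 symbol, 1801 under several and 11721 under none; Entrez identifiers in RefSeq changed 0 symbols. Groups and replicate numbers came from the sample titles. The members, the gene lists and the rule for named genes were chosen with earlier results of these data known. The rule took all members with all their probe sets, NFE2L2 and KEAP1, and in each list up to 4 called genes (2 from each end of the fold changes) or, with none called, the 2 with the smallest p-values. The steps were tested on simulated data. Alternatives were a replicate block, a trended robust prior, no empirical Bayes, renewed centring or quantile normalization, filters at mean log2 values of 5 and 6, array weights, folds of 1.2 and 2, treat, other probe set rules, and leaving out each array. For the pathway lists and genes outside the members, these were added after seeing the data.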

Additional observations from a re-analysis of the deposited data

How the results depend on the processing

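The log2 fold changes of the 9 members kept their sign under all alternatives run, and in 150 of 152 alternative values the call at adjusted p and fold together was kept. Most of these values belong to the 8 members not called. None of them reached the fold threshold in any alternative (NQO1 came closest, at -0.49), so this count says little about robustness. The call of SLC7A11, the only one that could be lost, was kept in 15 of 17 alternatives. The 2 exceptions were SLC7A11 (-0.66) with an ordinary pooled variance and with treat. At the adjusted p alone, 9 of 143 values (treat left out) crossed the threshold. With the trended robust prior 6 member genes passed the test as lower, with averaged probe sets 5, with the pooled variance 1 (NQO1), and without shared probe sets 1 (SLC7A11), against 2. GCLC also passed with the filter at a mean of 6 (adjusted p = 0.0361), which left 3 of 9 members passing as lower, against 5.44% of the 12460 genes kept. The counts of genes passing were added after seeing the data. Of the named genes that are no members, 24 of 299 values crossed it, among them NFE2L2, NFE2L1, MAFF and TKT with the trended robust prior (all passing) and MGST3, GSTM4, TXNIP, MSRB3 and EPHX1 with the pooled variance (none passing). EPHX1 lost its call with the pooled variance, with treat and without vector control replicate 3, and PIR with treat. With the pooled variance, 1 member probe set was called lower and 3 passed the test as lower, 0 member genes were called lower, and 379 of all probe sets were called, against 716. With the trended robust prior, 13 member probe sets passed the test as lower. With a fold above 1.2, 7 member probe sets and 2 member genes were called lower, as were 11 genes of the pathway lists, with 3 higher, and 1979 of all probe sets were called. With a fold above 2, 0 member probe sets and 0 member genes were called lower, 4 genes of the pathway lists, all among the other NRF2 targets (4), and 240 of all probe sets. Treat called 0 member probe sets and 0 member genes lower, 4 genes of the pathway lists and 4 of the other NRF2 targets, and 202 of all probe sets. These last changes follow from the thresholds themselves; for the 2 variance models the cause was not tested. Without 1 array, 2 to 3 member probe sets were called lower, 5 to 7 passed the test, 1 member gene was called lower, and 684 to 747 of all probe sets were called. Without probe sets shared between transcripts (suffixes _s_at and _x_at), 3 genes of the pathway lists, all among the other NRF2 targets (3), were called lower. AKR1C2 then rests on a probe set that averages 4.29 with CRB3 and 4.24 with the vector and had a log2 fold change of 0.055, and NQO2, likewise dim, had one of 0.0080. NQO1 has no probe set left there, and so no value. With the replicate number as a block, 2 member probe sets were called lower, 6 passed the test as lower, and 710 of all probe sets were called; no call of a member gene changed. The numbers are not known to pair the samples: deviations of arrays with the same number correlated at -0.085, 0.064 and 0.029. The values do not say which dim probe sets lie above background.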
